A study of Mus musculus with 6 samples.

Results

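Cholesterol is built from acetyl-CoA in 2 stages, and the transcripts of both stages, together with the genes that sense and move sterols, were measured in T cells with and without SAP. The 28 genes were listed by name and divided by their place in the pathway: 8 early mevalonate genes, 10 post-squalene genes, and 10 genes of SREBP control, transport and efflux. A single-gene probe set was found for 26 of them, out of 18193 genes measured, leaving Acat2, of the early steps, and Soat1, which esterifies cholesterol, without a value. All 26 measured genes lay above 5.75, the median of the mean log2 levels of the probe sets, so none was lost to low signal.

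The study compared SAP-deficient with wild-type (WT) CD4 T cells on 3 microarrays each. SAP, the product of Sh2d1a, is a small adaptor through which SLAM-family receptors signal. Cells of both genotypes carried the OT-II transgenic T cell receptor, which recognises an ovalbumin peptide. Naive cells from spleen and lymph nodes were sorted and grown for 3.5 days with that peptide and T cell-depleted splenocytes stopped by mitomycin C. Both genotypes received IL-21 at 50 ng/ml and IL-6 at 100 ng/ml, with antibodies against TGF-β at 20 µg/ml, against IL-4 at 10 µg/ml, and against IL-12 and IFN-γ, which is meant to yield cells like follicular helper T (Tfh) cells. The labels give neither the way SAP was removed nor the age of the mice. They do not say which arrays stem from different mice or cultures, and sex-linked transcripts, given with the check of the labels, differed between arrays of one genotype.

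Sterol synthesis is governed by SREBP proteins, membrane-bound transcription factors that the escort Scap carries to the Golgi when sterols are scarce. There they are cut, and the freed part enters the nucleus and switches on genes of synthesis and uptake, while the Insig proteins hold the complex back when sterols are plentiful. Surplus cholesterol and its oxidised forms activate LXR receptors, which switch on the exporters Abca1 and Abcg1. Activated T cells are known to switch on the SREBP programme as they grow, since dividing cells need new membrane.

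SREBP binds promoters together with NF-Y, which recognises a CCAAT box, and Sp1, which recognises a GC-rich box. Promoter windows of 300 bases, from 250 before to 50 after a transcript start, were available from RefSeq (GRCm38.p6) for 22 of the 28 genes. The sterol regulatory element was searched as TCACCCCAC on both strands and was found for 1 of 22 genes, Hmgcs1 (4.55%), against 0.614% of 27025 genes with a window and 0.675% of 8886 such genes above the median level. Its relaxed form TCACNCCAC, which includes the first, was found for no further member. The CCAAT box was found for 19 of 22 genes (86.4%), against 41.1% of all genes and 42.7% of those above the median level. By step these were 5 of 6 early genes, 9 of 9 post-squalene genes and 5 of 7 control genes. The Sp1 box GGGCGG was found for 21 of 22 (95.5%), against 38.2% and 68.6%, and the E-box form TCACGTGA for 0 of 22, against 1.125% and 2.32%. A gene counted as matched when any of its windows held the motif, and the 22 genes had 30 windows. These are matches of letters and say nothing of binding. The windows of Hmgcs1 (chr13:119690101-119690400, + strand), Mvk (chr5:114444019-114444318, + strand) and Nsdhl (chrX:72918271-72918570, + strand) are printed 5′ to 3′. Hmgcs1 is shown as the member with the sterol element, marked in capitals and starting at position -137 from the transcript start. Mvk and Nsdhl are shown as the early and post-squalene genes with the most CCAAT boxes, 5 and 4, marked in capitals on either strand.
Hmgcs1: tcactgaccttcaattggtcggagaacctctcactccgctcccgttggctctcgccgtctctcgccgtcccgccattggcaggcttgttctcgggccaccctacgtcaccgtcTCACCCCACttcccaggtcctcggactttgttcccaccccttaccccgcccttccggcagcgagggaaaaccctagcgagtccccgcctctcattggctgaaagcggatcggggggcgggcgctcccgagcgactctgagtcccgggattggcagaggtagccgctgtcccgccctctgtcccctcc
Mvk: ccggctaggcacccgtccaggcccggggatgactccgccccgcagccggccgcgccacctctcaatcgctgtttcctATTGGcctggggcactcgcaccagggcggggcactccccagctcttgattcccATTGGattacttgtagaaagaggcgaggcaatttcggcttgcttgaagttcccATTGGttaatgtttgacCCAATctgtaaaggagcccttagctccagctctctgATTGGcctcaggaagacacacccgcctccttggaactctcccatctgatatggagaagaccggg
Nsdhl: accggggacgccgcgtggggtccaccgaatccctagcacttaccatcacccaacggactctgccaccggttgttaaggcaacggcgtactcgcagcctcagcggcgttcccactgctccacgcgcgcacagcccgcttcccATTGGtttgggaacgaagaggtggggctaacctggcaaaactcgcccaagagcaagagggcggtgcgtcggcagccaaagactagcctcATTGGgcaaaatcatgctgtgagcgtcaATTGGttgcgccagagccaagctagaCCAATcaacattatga

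**Figure D1:**
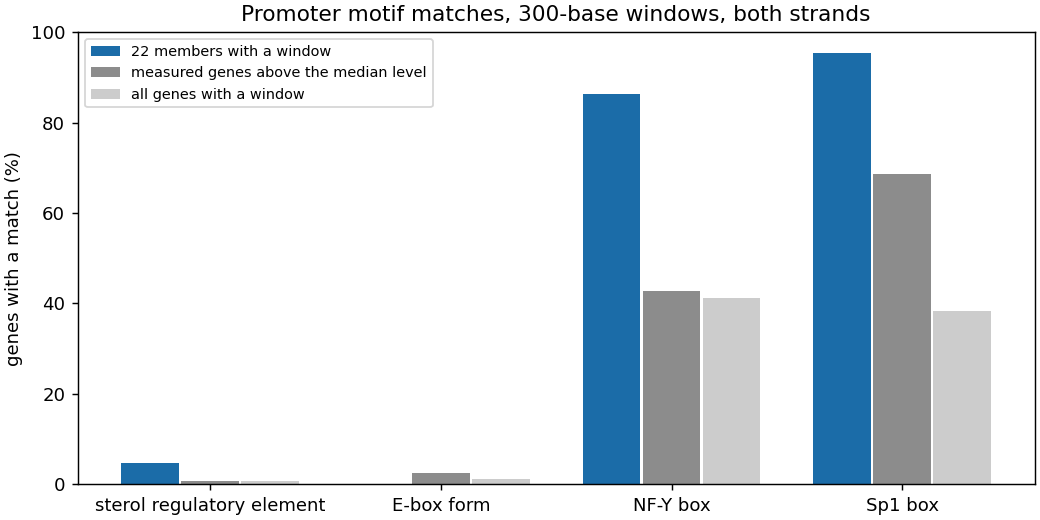
Share of genes (%, y axis) with at least 1 match to each motif (x axis) in the 300-base promoter windows, for 22 members, for measured genes above the median level and for all genes with a window. The CCAAT box of NF-Y was found for 86.4% of the member genes in any of their windows, against 42.7% and 41.1% of the other 2 sets. Counted by window, it stood in 66.7% of the members' windows and 37.4% of all windows.

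The labels were checked first. Sh2d1a was at 5.47, 4.10 and 4.92 on the log2 scale in SAP-deficient replicates 1 to 3, against 9.50, 8.52 and 9.39 in WT replicates. Its change was -4.31 ± 0.38 (SE), with an adjusted p of 0.107 (limma, genotype only) that became 9.88e-07 when the replicate number was added as a block. The numbers follow accession order and are no pairing given by the labels, but equal numbers marked arrays that resembled each other. Deviations from the genotype means correlated across genes at 0.58, 0.82 and 0.67 between equal numbers and at -0.61 to -0.09 between unequal ones. These deviations sum to 0 within a genotype, so positive values for equal numbers pull the others below 0. The levels themselves correlated at 0.996 to 0.998 between equal numbers and at 0.988 to 0.994 between unequal ones. Xist, expressed from a silenced X chromosome in female cells, was at 12.50, 8.19 and 6.26 in SAP-deficient replicates 1 to 3 and at 12.50, 8.21 and 5.81 in WT replicates, so equal numbers matched. Eif2s3y, a Y-linked gene, was at 2.91, 9.98 and 9.76 in SAP-deficient replicates, against 3.54, 9.96 and 9.80 in WT replicates. Kdm5d and Uty, also Y-linked, were lowest in number 1 in both genotypes as well. Number 1 thus had the transcripts of female cells and numbers 2 and 3 those of the Y chromosome, with Xist in number 2 between the others, so the spread within a genotype includes different mice. T cell genes were high in both genotypes, with Cd3d at 12.97 in SAP-deficient and 12.89 in WT cells, as means of 3 arrays. Markers of the splenocytes were not all near background, with Cd74 at 9.95 in SAP-deficient and 10.13 in WT cells. In such bulk RNA, fewer cells of a type and less RNA per cell cannot be told apart.

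Across the pathway the genotypes differed little and mostly in one direction. The mean was higher in SAP-deficient cells for 24 of 26 members, against 53.3% of all genes and 59.7% of genes above the median level. Above 8.03, the 75th percentile of the probe sets' mean levels, it was higher for 20 of 22 members, against 64.5% of genes. Changes, SAP-deficient minus WT, ran from -0.25 to 0.27 with a median of 0.11 (log2), where the median over all genes was 0.01 and over genes above the median level 0.02. None of the 26 was called at an adjusted p under 0.05 by limma with genotype alone. The same fit called 0 of 18193 genes (0.0%), and every member had an adjusted p of 1.00. At an unadjusted p under 0.05 it took in 0 members, against 110 genes higher in SAP-deficient cells (0.605%). No member had every SAP-deficient array above every WT array, which 2.38% of all genes did, and each member's 95% interval held 0.

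The arrays were then compared within equal replicate numbers. In all 3 numbers the SAP-deficient array exceeded the WT array for 15 of 26 members, against 15.6% of all genes and 19.1% of genes above the median level. Above the 75th percentile it did so for 15 of 22 members, against 21.9% of genes. When all probe sets of a gene were averaged, the count was 9 of 26, against 14.3% of all genes. No member was lower in all 3. With the number as a block, limma called 0 members at an adjusted p under 0.05. It called 1 gene of 18193 (0.0055%), Sh2d1a. The members' adjusted p-values were 0.685 to 0.917. At an unadjusted p under 0.05, this fit held 7 of 26 members, all higher: Hmgcs1, Pmvk, Idi1, Fdft1, Sqle, Lss and Insig1. Of all genes, 691 (3.80%) were higher at that level. When both arrays of number 1, 2 or 3 were left out, 19, 18 and 17 members were higher in both remaining numbers, against 26.4%, 28.9% and 27.4% of all genes.

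Other gene groups differed beside the pathway. Of 27 cell-cycle genes 25 had a higher mean in SAP-deficient cells, with a median change of 0.10, near that of the 26 members. Unlike the members, none of the 27 was higher in all 3 numbers: their mean level was 9.63, 9.75 and 9.79 in SAP-deficient replicates 1 to 3, against 9.80, 9.81 and 9.23 in WT replicates. T cell identity genes had a median change of 0.02 with 8 of 10 higher, CD8 T and NK cell genes 0.11 with 4 of 5 higher, and Tfh genes -0.16 with 0 of 8 higher. With the block, 5 of the 8 Tfh genes had an unadjusted p under 0.05, all lower, against 517 of 18193 genes lower at that level. In all 3 numbers 4 of the 8 were lower, against 2390 of 18193. The same fit took in 1 T cell identity gene and 1 CD8 T and NK cell gene, both higher, and 0 cell-cycle genes. No gene of these lists was called in either fit, and their part in the members' differences was not tested.

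**Figure D2:**
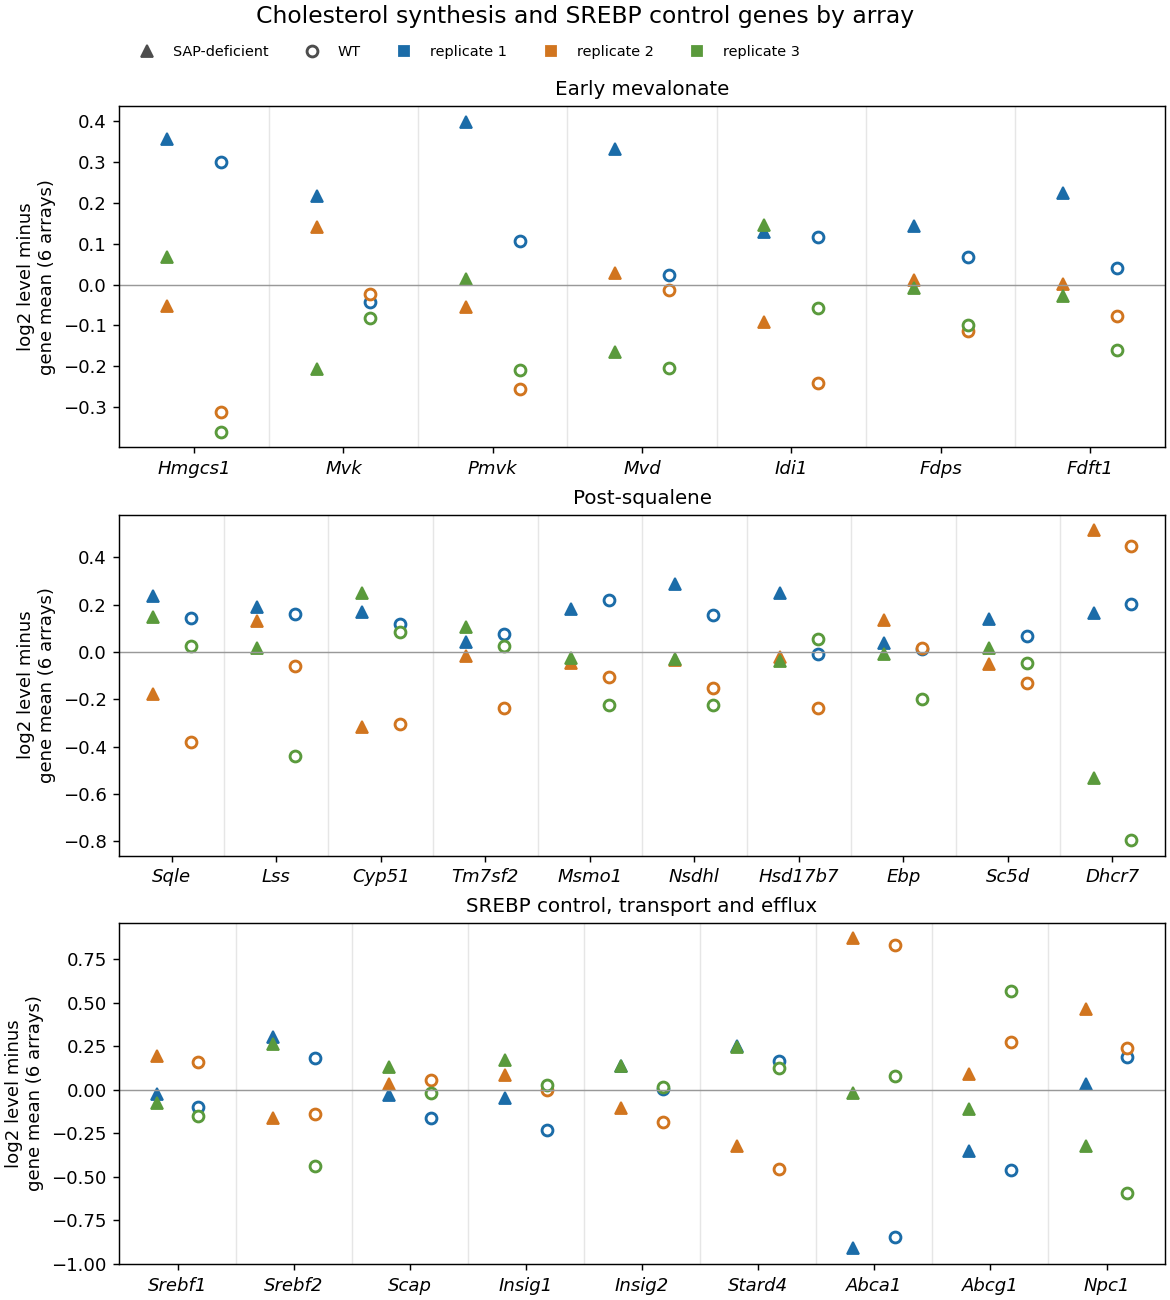
Log2 level of each gene on each array minus the gene's mean over the 6 arrays (y axis), with 1 panel for each step. Filled triangles are SAP-deficient arrays, open circles WT arrays and colours replicate numbers; in all 3 colours the triangle lies above the circle for 15 of 26 genes, each on its brightest probe set (9 of 26 with all probe sets averaged).

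The early mevalonate genes turn acetyl-CoA into squalene. All 7 measured members had a higher mean in SAP-deficient cells, from 0.10 to 0.25, with a median change of 0.13 (SD between genes 0.06). In all 3 numbers 6 of the 7 were higher on their brightest probe sets. Mean differences within numbers 1, 2 and 3 were 0.17, 0.15 and 0.14, so they were of similar size in each. Leaving out SAP-deficient replicate 1 gave a median of 0.05, and leaving out SAP-deficient replicate 3 gave 0.23. None of the 7 passed the adjusted threshold in either fit.

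Hmgcs1, which makes HMG-CoA, the precursor of mevalonate, was at 11.43, 11.02 and 11.15 in SAP-deficient replicates 1 to 3, against 11.38, 10.76 and 10.72 in WT replicates. The groups overlapped, with both number 1 arrays on top, and the difference was smallest in number 1 (0.06) and largest in number 3 (0.43). Its change was 0.25 ± 0.19 (SE, genotype only), or 1.19-fold, and the interval with the block was 0.09 to 0.41. A further 4 probe sets of Hmgcs1 gave mean changes of 0.13 to 0.30, all higher in SAP-deficient cells. The brightest of these was lower in number 1 (-0.03, 0.08 and 0.32), and the others were higher in each number. Pmvk, the kinase that adds the second phosphate to mevalonate, was at 9.02, 8.57 and 8.64 in SAP-deficient replicates, against 8.73, 8.37 and 8.41 in WT replicates. Its change was 0.24 ± 0.17, and its differences of 0.29, 0.20 and 0.22 were alike in the 3 numbers, although the highest WT array exceeded 2 SAP-deficient arrays. Genotype held 30.0% of the sum of squares of Pmvk and the replicate number 69.2%.

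Fdft1, squalene synthase, which commits the pathway to sterols, was at 10.67, 10.45 and 10.42 in SAP-deficient replicates, against 10.49, 10.37 and 10.29 in WT replicates. It was higher by 0.18, 0.08 and 0.13 in numbers 1 to 3, while the groups overlapped. A further Fdft1 probe set of similar brightness gave 0.06, with 0.06, -0.07 and 0.18, and it stands for the gene when _x_at and _s_at probe sets are left out. Fdps, which builds the farnesyl unit shared with protein prenylation, was at 11.64, 11.51 and 11.49 in SAP-deficient replicates, against 11.57, 11.38 and 11.40 in WT replicates. Its mean change was 0.10 ± 0.08, with differences of 0.07, 0.13 and 0.09. Another Fdps probe set lay near background at a mean level of 2.64 and gave -0.13.

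Idi1, which interconverts the 2 isoprene building blocks, was at 11.25, 11.03 and 11.27 in SAP-deficient replicates, against 11.24, 10.88 and 11.06 in WT replicates. Number 1 hardly differed (0.01), and another probe set of Idi1 gave 0.03 with -0.21, -0.03 and 0.33 in the 3 numbers. Mvd, the decarboxylase that follows Pmvk, was higher by 0.31 in number 1 and by 0.04 in each of numbers 2 and 3, with a mean change of 0.13 ± 0.16. Another Mvd probe set of similar brightness gave 0.07, with 0.33, -0.0031 and -0.12, so only number 1 was higher there. Mvk, mevalonate kinase, was the exception to the shared order on the brightest probe sets. It was at 7.80, 7.73 and 7.38 in SAP-deficient replicates and at 7.54, 7.56 and 7.50 in WT replicates, so number 3 ran the other way. Another Mvk probe set of similar brightness gave -0.01, 0.12 and 0.01, so number 3 was not reversed there.

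The post-squalene genes turn squalene into cholesterol. All 10 had a higher mean in SAP-deficient cells, from 0.07 to 0.23, with a median change of 0.10 (SD between genes 0.05), and 5 of 10 were higher in all 3 numbers. Mean differences were 0.05, 0.13 and 0.16 in numbers 1 to 3. The median was 0.04 without SAP-deficient replicate 1 and 0.04 without WT replicate 2, and 0.18 without WT replicate 1.

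Sqle, squalene epoxidase, which opens this stage, was at 10.88, 10.47 and 10.80 in SAP-deficient replicates, against 10.79, 10.27 and 10.67 in WT replicates. It was lowest in number 2 in both genotypes, and the number held 88.4% of its sum of squares against 10.5% for genotype. Lss, which folds the epoxide into lanosterol, was at 9.32, 9.26 and 9.14 in SAP-deficient replicates, against 9.29, 9.07 and 8.69 in WT replicates. Its mean change of 0.23 ± 0.17 came mostly from number 3, where the WT array was the lowest of the 6 and the difference was 0.46. Number 1 differed by 0.03. A dimmer Lss probe set gave 0.15, with 0.37, -0.06 and 0.13. In number 3 the cell-cycle genes differed most as well: their mean difference was -0.18, -0.06 and 0.56 in numbers 1 to 3, and 26 of 27 were higher in number 3, and the part of this in the Lss difference was not tested.

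Nsdhl, a dehydrogenase that helps to strip methyl groups from the sterol ring, was at 8.82, 8.50 and 8.51 in SAP-deficient replicates, against 8.69, 8.38 and 8.31 in WT replicates. Its differences of 0.13, 0.12 and 0.19 were alike. Sc5d, the sterol desaturase, had the closest differences of the step on its brightest probe set, 0.07, 0.08 and 0.06. Dimmer Sc5d probe sets gave -0.15, 0.18 and 0.32, and -0.18, 0.05 and 0.19. Ebp, the sterol isomerase, had 0.03, 0.12 and 0.19. Of the other 5, each went against the majority in 1 number. Cyp51, the lanosterol demethylase, was lower by 0.01 in number 2, and Hsd17b7, the keto-sterol reductase, by 0.09 in number 3. Tm7sf2, a sterol reductase, and Msmo1, the methylsterol oxidase, were lower by 0.03 and 0.04 in number 1.

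Dhcr7, the reductase of the last step, stood apart by its spread between numbers. It was at 6.80, 7.15 and 6.10 in SAP-deficient replicates, against 6.84, 7.08 and 5.84 in WT replicates. Both number 3 arrays were the lowest, number 2 the highest, and the values of the 3 numbers did not overlap. Such separation was seen for 4 of 26 members (Sc5d, Dhcr7, Abca1 and Npc1), against 25.2% of all genes. Between genotypes Dhcr7 differed by 0.10 with a 95% interval of -0.77 to 0.96 (genotype only) or -0.12 to 0.31 (block), so no difference was detectable at this precision.

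**Figure D3:**
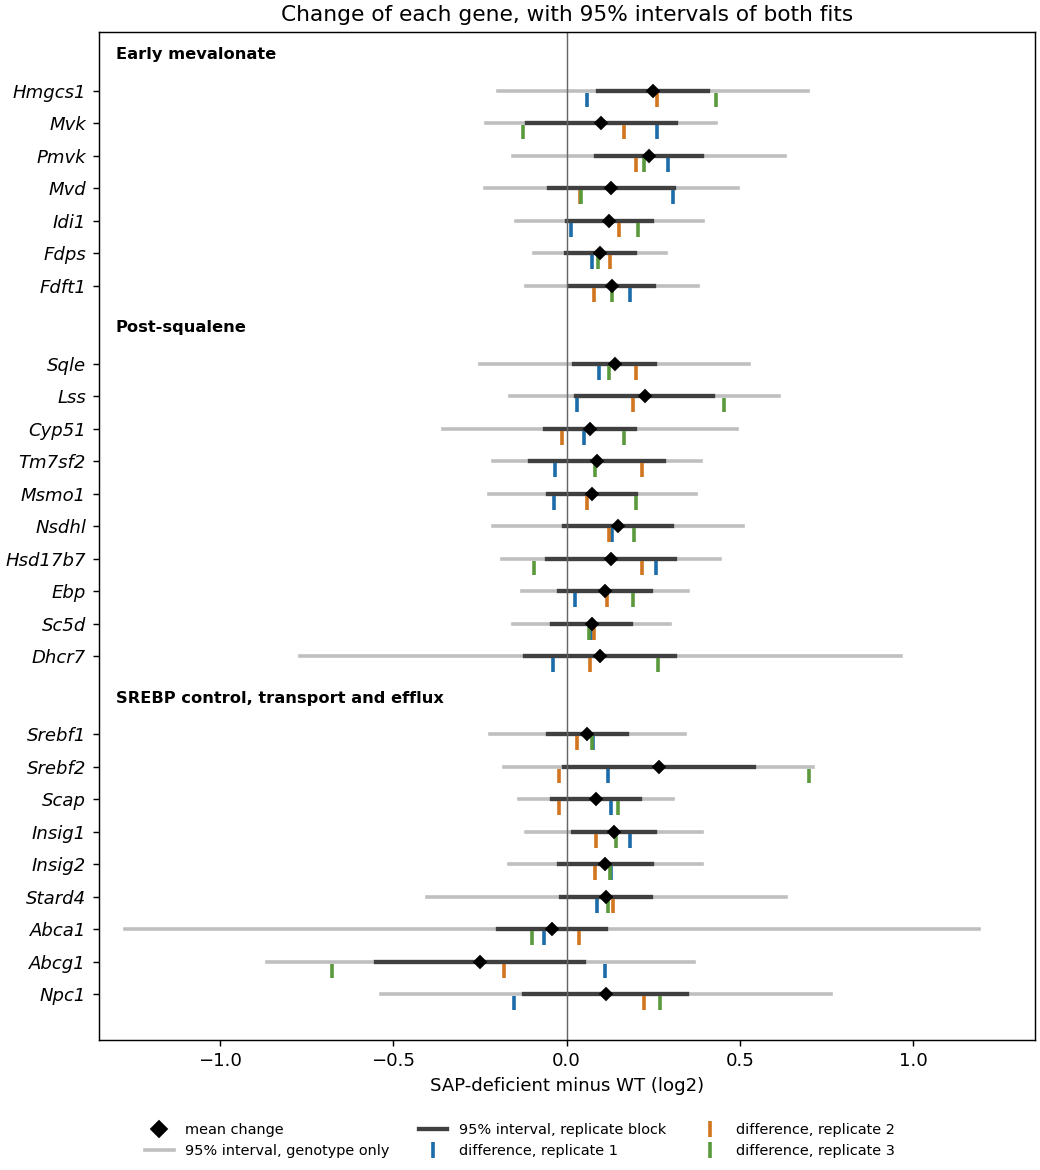
Log2 change of each gene as SAP-deficient minus WT (x axis), by step (rows). Diamonds are mean changes, pale and dark bars the 95% intervals of the genotype-only fit and of the fit with the replicate block, and ticks the differences within each number; all pale bars cross 0, and 24 of 26 diamonds lie above it.

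Genes of SREBP control and sterol transport were mostly higher in SAP-deficient cells, and the exporters were not on their brightest probe sets. The 9 measured genes had a median change of 0.11, with 7 higher, and the SD between genes was 0.14, against 0.05 for post-squalene genes. In all 3 numbers 4 of 9 were higher: Srebf1, Insig1, Insig2 and Stard4. The median was 0.06 without WT replicate 1 and 0.05 without the arrays of number 3.

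Srebf2, the SREBP most tied to cholesterol genes, was at 10.23, 9.77 and 10.19 in SAP-deficient replicates, against 10.11, 9.79 and 9.49 in WT replicates. Its mean change of 0.27 ± 0.19 was the highest of the 26, and it came from number 3 (0.70), with 0.12 and -0.02 in numbers 1 and 2. Another Srebf2 probe set gave 0.07 ± 0.16, with 0.09 in number 3. Srebf1, the SREBP more tied to fatty acid genes and itself an LXR target, was at 10.54, 10.76 and 10.49 in SAP-deficient replicates, against 10.46, 10.73 and 10.42 in WT replicates. It was highest in number 2 in both genotypes, with a change of 0.06 ± 0.12. Scap, the escort, differed by 0.13, -0.02 and 0.15.

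On their brightest probe sets, both retention factors lay higher in SAP-deficient cells in each number. Insig1, itself a target of SREBP, was at 10.41, 10.55 and 10.63 in SAP-deficient replicates, against 10.23, 10.46 and 10.49 in WT replicates, higher by 0.18, 0.08 and 0.14. Insig2 was at 9.63, 9.39 and 9.63 in SAP-deficient replicates, against 9.50, 9.31 and 9.51 in WT replicates, higher by 0.13, 0.08 and 0.12. The groups overlapped for both genes. Of 2 further Insig2 probe sets, 1 was higher in each number (0.14, 0.08 and 0.31) and the other was lower in number 1 (-0.27, 0.07 and 0.33). Stard4, a carrier of cholesterol between membranes, was at 9.93, 9.36 and 9.93 in SAP-deficient replicates, against 9.84, 9.22 and 9.81 in WT replicates. Its differences were 0.09, 0.14 and 0.12, and 2 further probe sets of Stard4 were also higher in each number.

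The exporters were the only 2 members with a lower mean in SAP-deficient cells on the brightest probe set. Abca1 was at 7.82, 9.60 and 8.71 in SAP-deficient replicates, against 7.88, 9.56 and 8.81 in WT replicates. Its replicate numbers spanned 1.73 log2 units while the genotypes differed by -0.04, and the number held 99.7% of its sum of squares. Further Abca1 probe sets, below the median level, gave mean changes of 0.10 and 0.15, with number 3 lower in both. Abcg1 was at 7.99, 8.43 and 8.23 in SAP-deficient replicates, against 7.88, 8.61 and 8.91 in WT replicates. Its change of -0.25 ± 0.26 came mostly from number 3 (-0.68), and a dimmer Abcg1 probe set was higher in all 3 numbers (0.11, 0.36 and 0.23). The direction of either exporter was therefore not settled. Npc1, which lets cholesterol out of lysosomes, was at 7.20, 7.62 and 6.84 in SAP-deficient replicates, against 7.35, 7.40 and 6.57 in WT replicates. Its differences of -0.15, 0.22 and 0.27 did not share a sign.

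Markers of antigen-presenting cells, which can express the exporters, differed in number 3 too. The 9 MHC class II genes had mean differences of -0.05, -0.06 and -0.47 in numbers 1 to 3, with 1 of 9 higher in that number, and their mean level was 7.43, 7.19 and 7.05 in SAP-deficient replicates, against 7.48, 7.25 and 7.52 in WT replicates. The 13 B cell genes differed by -0.12, -0.04 and -0.36, with mean levels of 5.77 to 6.15 in SAP-deficient and 6.04 to 6.27 in WT replicates. The 13 myeloid genes differed by 0.06, -0.14 and -0.16, with mean levels of 5.79 to 6.26 in SAP-deficient and 5.93 to 6.20 in WT replicates. The B cell genes ranged from Cr2, at 4.74 in SAP-deficient and 5.03 in WT cells, to Ighm, at 10.37 in SAP-deficient and 10.40 in WT cells, so they were not all near background. The part of these cells in the Abcg1 difference was not tested.

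The replicate number carried more of the spread of these genes than the genotype did. It held a median of 72.3% of the sum of squares over the 26 members, against 66.9% over all genes and 78.7% over genes above the median level. Genotype held a median of 17.5%, against 6.36% and 4.51%. For each of the 26, the range between the numbers exceeded the genotype change. The share of all genes that did so was not counted, so this does not set the members apart. A range over 3 numbers and a difference of 2 genotypes are unlike measures. The median range was 0.34 over the members, against 0.23 over all genes and 0.27 over genes above the median level. All 17 synthesis genes but Cyp51, Tm7sf2, Ebp and Dhcr7 were highest in number 1, and all 17 were lowest in number 2 or 3. Of 18193 genes, 5612 were highest in number 1, while 4588, 7214 and 6391 were lowest in numbers 1, 2 and 3. Relative to their own means, early genes lay at 0.17, -0.08 and -0.10 in numbers 1 to 3 and post-squalene genes at 0.14, -0.05 and -0.09. Abca1 and Abcg1 were lowest in number 1. The arrays of equal number share whatever sets them apart from the others, so these levels are given as a description. Number 1 also differed from the others in its sex-linked transcripts, whose part in these levels was not tested.

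**Figure D4:**
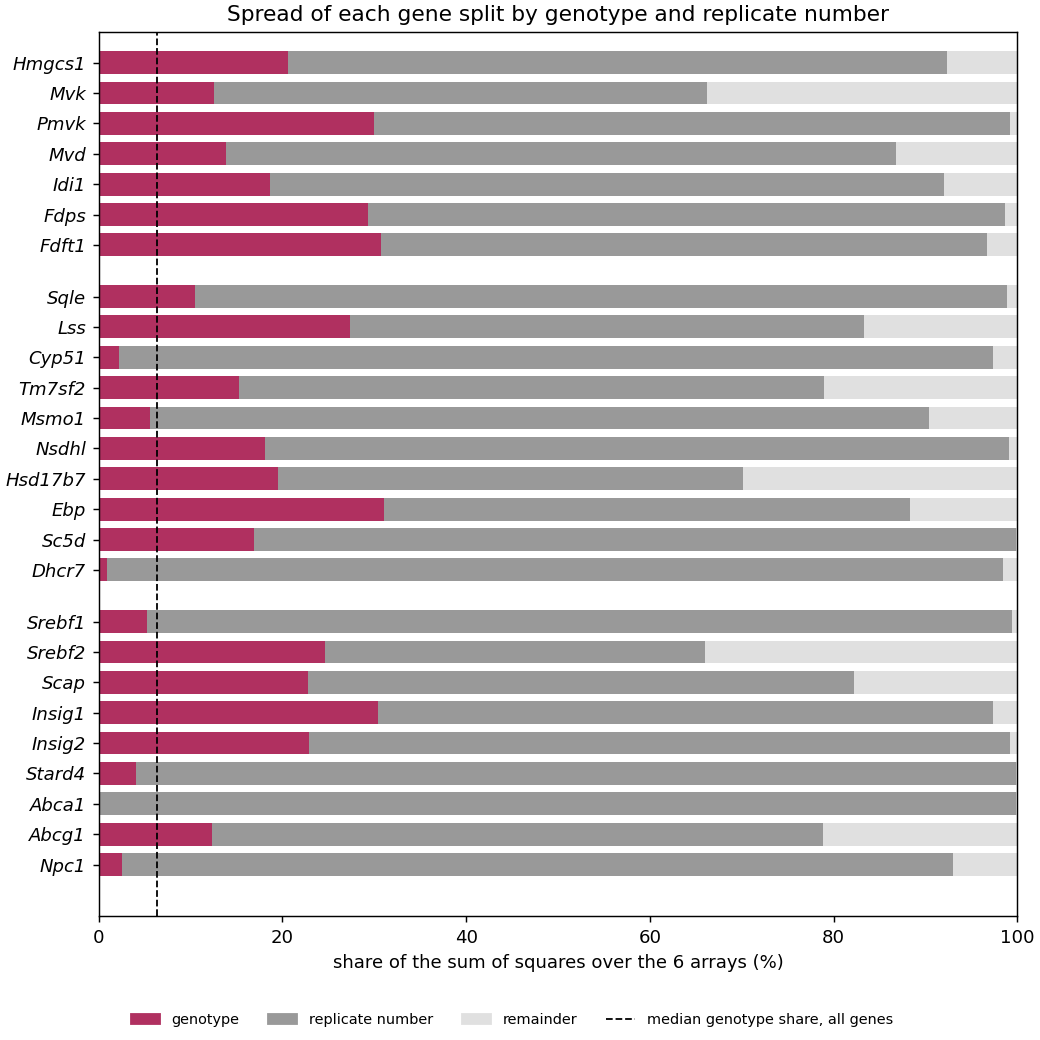
Share of each gene's sum of squares over the 6 arrays (%, x axis) that lay between genotypes, between replicate numbers, or in the remainder, by gene (rows, in pathway order). The dashed line is the median genotype share over all genes, 6.36%; Ebp, at 31.1%, has the largest genotype share of the 26 and Abca1, at 0.087%, the smallest.

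Neighbouring branches of the pathway were examined with 4 further lists of 54 genes, of which 50 were measured. Fatty acid synthesis genes, which SREBP also controls, were higher on average for 14 of 16, against 53.3% of all genes, with a median change of 0.08. In all 3 numbers 4 of 16 were higher, against 15.6% of all genes and 19.1% of genes above the median level. With the block, 4 of 16 had an unadjusted p under 0.05, all higher, against 3.80% of all genes higher at that level. These were Acaca, which makes malonyl-CoA (0.17 ± 0.11, SE of the genotype-only fit), Fads2, a fatty acid desaturase (0.21 ± 0.16), Gpam, which starts glycerolipid synthesis (0.21 ± 0.15), and Lpin1, a phosphatidate phosphatase (0.25 ± 0.31). Their adjusted p-values were 0.718, 0.740, 0.740 and 0.685 (limma, block). Mean differences of this list were 0.03, 0.06 and 0.19 in numbers 1 to 3, so number 3 weighed more here than in the early mevalonate genes.

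The other 3 lists had smaller median changes, and their difference from the members was not tested. The 11 genes of isoprenoid branches, among them the prenyl transferases, had a median of 0.03 with 8 higher and none higher in all 3 numbers. The 6 genes of the SREBP proteases and of sterol-sensing degradation had a median of 0.01 with 4 higher. Genes of sterol traffic, oxysterols and LXR had a median of -0.01 with 8 of 17 higher. In this last list Gramd1a, a carrier of sterol at membrane contacts, and Sult2b1, a sterol sulfotransferase, had an unadjusted p under 0.05 with the block. Their adjusted p-values were 0.740 and 0.691 (limma, block). Their changes were 0.14 ± 0.11 and -0.26 ± 0.42 (SE of the genotype-only fit). Sult2b1 was at 8.45, 8.54 and 9.49 in SAP-deficient replicates, against 8.60, 8.67 and 10.00 in WT replicates. No gene of the 4 lists was called in either fit.

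Agreement between probe sets was partial. Of the members, 17 had several probe sets. Beyond those that stand for a gene there were 30, of which 26 were higher in SAP-deficient cells. Among the 24 of these above the median level, 22 were higher and 7 were higher in all 3 numbers. For genes above the median level, each on the probe set that stands for it, these shares were 59.7% and 19.1%. The 2 of the 24 with opposite sign belonged to Cyp51 (-0.05) and Scap (-0.04), both dimmer than the probe set that stands for the gene. The 26 higher ones include probe sets of Abca1 and Abcg1 below the median level, whose brightest probe sets were lower.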

How the data were processed

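The deposited table holds log2 values for 45101 probe sets on Affymetrix mouse genome arrays, 1 column per array. Affymetrix Expression Console and RMA are named in the submitters' processing notes. RMA corrects background, equalises the arrays' distributions and so hides changes in total RNA, and can compress differences of dim probe sets. No version of either tool was given in the sources used here. Array medians ran from 5.73 to 5.77. The number of arrays, 3 per genotype, limits the precision.

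The 64 control probe sets were dropped first. GEO's platform annotation gave 1 gene for 34945 probe sets, several for 932 and none for 9160. Of the single-gene probe sets, 34741 matched a RefSeq gene and took its symbol. Where several probe sets named a gene alone, the one with the highest mean stood for it, which gave 18193 genes. The genotypes were compared by limma 3.58.1 (R 4.3.3), with an intensity trend, Benjamini-Hochberg adjustment over all genes and a call at an adjusted p under 0.05. The fit was tested on simulated data. Alternatives were the replicate number as a block, the eBayes settings, filters on dim probe sets, normalization, array weights, other probe sets and the removal of arrays.

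The named genes are the 28 members, Sh2d1a, marker genes, and genes of 4 neighbouring lists with an unadjusted p under 0.05 in either fit. Marker genes other than the lowest and highest of a list, Xist and the Y-linked genes, and the promoters of Mvk and Nsdhl were chosen after values were seen. Members and lists were chosen with earlier results of these data known, and the removal of both arrays of a number was also added after seeing the data.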

Additional observations from a re-analysis of the deposited data

How the results depend on the processing

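None of the 26 members was called under any alternative run. Over all genes, limma called 0 with genotype alone, also when any 1 array was left out. It called 1 with the replicate block, and 2, 1 and 93 with the block when both arrays of number 1, 2 or 3 were left out, which was chosen after seeing the data and rests on 2 arrays a genotype. The replicate block leaves the changes as they are and changed no member's call. Members higher in all 3 numbers counted 15, and 9 when all probe sets of a gene were averaged, against 14.3% of all genes in that setting. With a further quantile normalization 13 of 26 were higher in all 3 numbers, against 13.3% of all genes. Without _x_at and _s_at probe sets, which can match several transcripts, the count was 12, against 15.6%. With arrays centred on their medians it was 16, against 18.2%. For the first and last of these the median over all genes was then -0.0011 and 0.02. When 1 array was left out, the median change ran from 0.05 to 0.23 for early mevalonate genes, from 0.04 to 0.18 for post-squalene genes, and from 0.06 to 0.16 for the third group.

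Leaving out 1 array unbalances the numbers, so differences between numbers enter such values. Signs turned for 10 members in this way: Abca1 (-0.49 to 0.40), Cyp51 (-0.068 to 0.24), Dhcr7 (-0.28 to 0.39), Msmo1 (-0.0201 to 0.20), Mvd (-0.0039 to 0.24), Npc1 (-0.16 to 0.31), Sqle (-0.016 to 0.26), Srebf1 (-0.021 to 0.16), Stard4 (-0.0868 to 0.30) and Tm7sf2 (-0.0077 to 0.15). With array weights the change of Dhcr7 was -0.0643 and that of Npc1 -0.0435. With all probe sets averaged that of Abca1 was 0.0701 and that of Fdps -0.0153. The cause was not tested.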
